A study of Homo sapiens with 12 samples.

Results

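The question addressed here is for which microRNAs (miRNAs) the loss of MPC1 had a different effect in 2 human acute myeloid leukemia (AML) cell lines, and whether that difference brought the lines closer to each other or moved them further apart. The quantity tested was the difference of differences, the log2 change from empty vector (EV) to MPC1 KO in Molm-14 minus the same change in MV4-11. Every mature miRNA that passed a filter on low counts was a member, 659 of the 1204 in the count table, and the filter uses counts alone, not the effects.

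MPC1 is part of the carrier complex in the inner mitochondrial membrane through which pyruvate enters the matrix. MV4-11 and Molm-14 are both FLT3-ITD positive AML lines, purchased from ATCC, and each was studied as EV and as MPC1 KO cells, with 3 small RNA libraries in each of the 4 groups. The KO cells carried a lentiCRISPRv2 construct with a GFP marker and a single guide RNA against MPC1, so an effect of that guide at other sites cannot be told apart from the loss of MPC1. The labels give no clone, passage or culture for the libraries, so p-values here measure only the spread between libraries, which may be technical.

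A miRNA is cut from an RNA hairpin, whose 5′ and 3′ sides can each give a mature arm (named -5p and -3p), and the arm is loaded into an Argonaute protein that represses messenger RNAs. Targets are recognised mainly through the seed, bases 2 to 8 of the mature miRNA, so miRNAs with the same seed share many predicted targets, and hairpins that lie close together on the same strand are often cut from one transcript. In blood cells miRNAs such as miR-155, miR-146a, let-7 and those encoded in the HOX clusters take part in differentiation and inflammatory signalling, and several are altered in AML.

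The gap below is the log2 ratio of Molm-14 to MV4-11 and is positive where the miRNA was higher in Molm-14. The EV gap compares the EV libraries of the lines, the KO gap compares their MPC1 KO libraries, and the difference of differences equals the KO gap minus the EV gap. Levels are given as CPM, counts scaled to a common library size. A miRNA was called where edgeR's quasi-likelihood test gave an adjusted p under 0.05. A called miRNA was placed under "together" where the sum of both gaps was also called with the sign opposite to that of the difference, since the KO gap was then smaller in size than the EV gap. It was placed under "apart" where both had the same sign, and under "undecided" where the sum was not called.

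The mature sequences of the miRNAs that the results turn on are shown first, because the seeds say which of them could share targets. They were taken from RefSeq on GRCh38.p14, which matched 581 of the 659 members and 41 of the 44 called ones, and capitals mark the seed. The arms of 3 neighbouring hairpins on chromosome 19 carry 6 different seeds, and the 2 scarce arms among them, let-7e-3p and miR-125a-3p, were called less firmly than the other 4:
miR-99b-5p: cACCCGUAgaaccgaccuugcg
miR-99b-3p: cAAGCUCGugucuguggguccg
let-7e-5p: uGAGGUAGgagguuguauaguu
let-7e-3p: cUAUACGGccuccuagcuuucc
miR-125a-5p: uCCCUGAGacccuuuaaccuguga
miR-125a-3p: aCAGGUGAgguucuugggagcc

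Outside chromosome 19, the miRNAs called in each of the fits that left out 1 library and under each other setting that tested them come from separate hairpins. miR-10a-5p and let-7b-5p are added, the former for having the widest EV gap among the called miRNAs and the latter because its seed is that of let-7e-5p:
miR-95-3p: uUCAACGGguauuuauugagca
miR-582-3p: uAACUGGUugaacaacugaacc
miR-615-3p: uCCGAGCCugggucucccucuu
miR-335-3p: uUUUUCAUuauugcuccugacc
miR-196a-5p: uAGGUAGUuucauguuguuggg
miR-1246: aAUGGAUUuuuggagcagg
miR-183-5p: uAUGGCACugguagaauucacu
miR-101-3p: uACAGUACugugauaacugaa
miR-10a-5p: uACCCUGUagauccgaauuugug
let-7b-5p: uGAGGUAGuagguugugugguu

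Each library held between 3870104 and 8683456 counts assigned to miRNAs, with 984 to 1057 miRNAs detected. Replicate libraries of a group differed by more than counting noise in every pair, with a chi-square per degree of freedom of 11.4 to 153.6, and none was a duplicate of another. The 6 haematopoietic markers (miR-142, miR-223, miR-155, miR-150 and miR-181a arms) were all detected, and their summed level was 66198 to 79232 CPM in MV4-11 EV, 68126 to 70802 in MV4-11 MPC1 KO, 81518 to 87669 in Molm-14 EV and 97607 to 105996 in Molm-14 MPC1 KO. The 5 epithelial markers summed to 322 to 366 CPM in MV4-11 EV, 389 to 431 in MV4-11 MPC1 KO, 128 to 149 in Molm-14 EV and 157 to 168 in Molm-14 MPC1 KO. Those of liver, neural and erythroid cells reached at most 13.2 CPM in any library. What part the higher haematopoietic sum of Molm-14 MPC1 KO libraries has in the differences was not tested. MPC1 itself is not measured by a miRNA table.

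A different effect of MPC1 KO in the 2 lines was called for 44 of the 659 miRNAs (6.68%). It was higher in Molm-14 than in MV4-11 for 16 (2.43%) and lower for 28 (4.25%), and 122 (18.5%) had an unadjusted p under 0.05. The split between directions depended on the scaling of the libraries. With upper-quartile factors the median difference over all members moved by 0.18 on the log2 scale and 44 miRNAs were again called, 31 higher and 13 lower, of which 29 were also called with TMM factors. With the RLE and total-count scalings 15 and 12 were higher and 27 and 27 lower. The closest call to the threshold was miR-182-5p (adjusted p = 0.0454 from edgeR's test), and the first beyond it was miR-155-5p (adjusted p = 0.0619), a miRNA induced in activated and many leukemic blood cells.

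Of the 44 miRNAs, 24 moved the lines together (3.64% of those tested), 18 moved them apart (2.73%) and 2 were undecided. This majority depended on the scaling, since with upper-quartile factors 20 moved the lines together and 21 apart. The lines differed widely before any effect of MPC1 loss, with 408 EV gaps called (61.9%), 221 of them higher in Molm-14 (33.5%) and 187 lower (28.4%). Of the KO gaps 411 were called (62.4%), 217 higher (32.9%) and 194 lower (29.4%). Both gaps were called for 345 miRNAs (52.4%) and their sum for 468 (71%). Over all members the KO gap was smaller in size than the EV gap for 333 (50.5%), and the median size of the gap was 0.83 in EV and 0.78 in MPC1 KO cells. Measured over the 279 miRNAs with a mean of at least 100 counts, the root mean square log2 distance between a MV4-11 and a Molm-14 library ranged from 1.80 to 1.87 over the 9 EV pairs and from 1.81 to 1.85 over the 9 KO pairs. The median absolute log2 distance over the same miRNAs ranged from 0.79 to 0.86 over the EV pairs and from 0.76 to 0.80 over the KO pairs. By the root mean square the profiles as a whole thus stood about as far apart in KO as in EV cells. By the median they stood slightly closer in KO cells, with ranges that overlapped. The movement described below concerns single miRNAs.

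**Figure D1:**
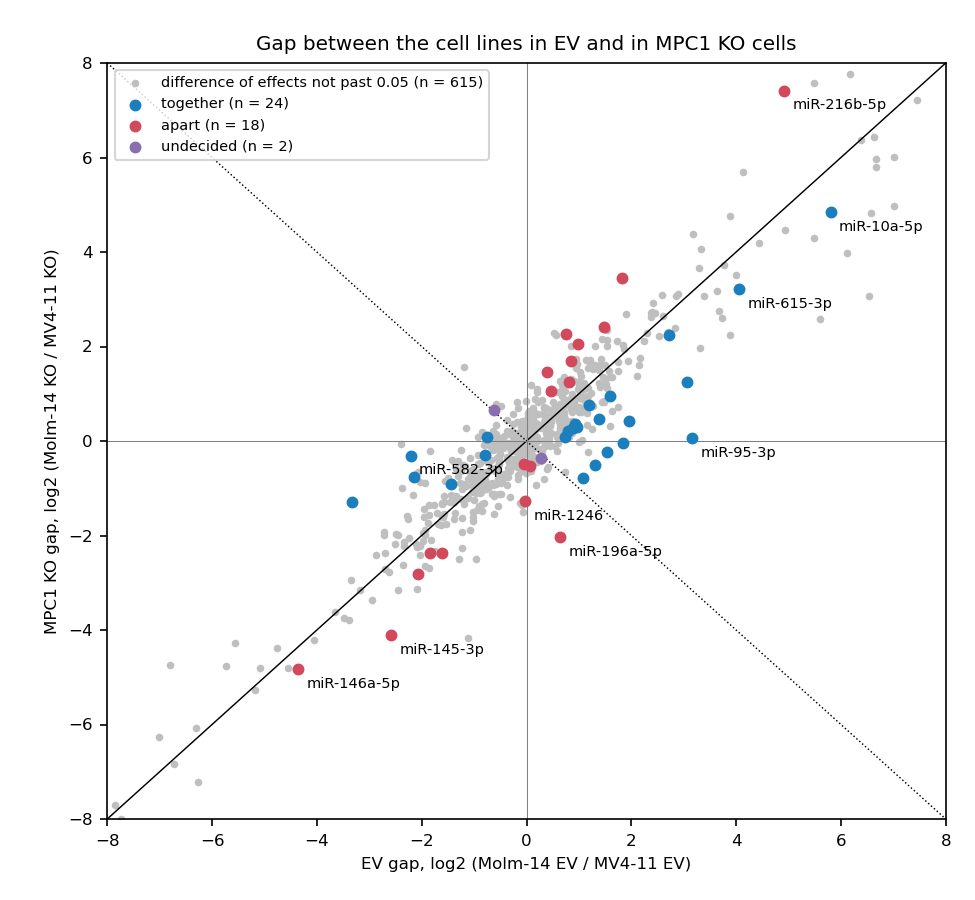
Each point is one of the 659 miRNAs, with the EV gap on the horizontal and the KO gap on the vertical axis, both log2 of Molm-14 over MV4-11. Points on the solid line kept their gap and points on the dotted line reversed it. Coloured points are the 44 called miRNAs, 24 together, 18 apart and 2 undecided, and 14 grey points lie outside the axes.

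The called miRNAs that moved together had a median gap size of 1.5 in EV and 0.44 in MPC1 KO cells. Those that moved apart had a median of 0.92 in EV and 2.16 in MPC1 KO cells. These medians are descriptions, since the same contrasts chose the classes. The directions were uneven among the classes, with 18 of the 24 "together" miRNAs having a lower effect in Molm-14 and the other 6 a higher one. The definition of this class fixes the starting side. The 18 were thus all higher in Molm-14 EV than in MV4-11 EV, and the 6 all started higher in MV4-11. The "apart" class was split evenly, 9 with a higher and 9 with a lower effect in Molm-14. In 29 of the 44 both gaps were called on the same side, in 4 they were called on opposite sides, in 6 only the EV gap was called and in 5 only the KO gap. The 4 that crossed were miR-99b-5p, miR-125a-5p, miR-196a-5p and miR-34c-5p.

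**Figure D2:**
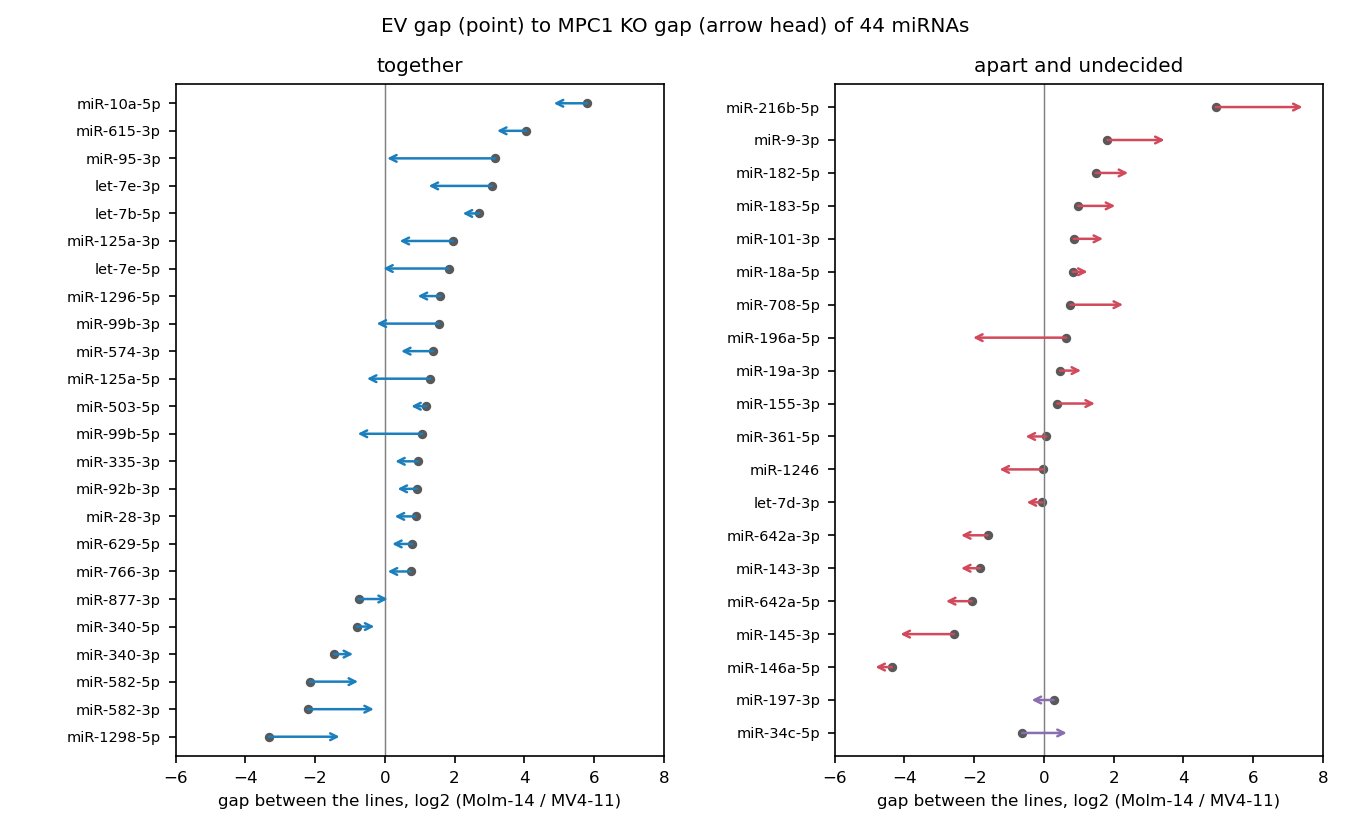
Each row is one of the 44 called miRNAs, and the arrow runs from the EV gap (grey point) to the KO gap (arrow head), in log2 of Molm-14 over MV4-11. The left panel holds the 24 miRNAs under "together", with arrows toward 0, and the right panel the 18 under "apart" and, as the lowest rows, the 2 undecided ones.

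Within a line, the effect of MPC1 KO was called for 20 of the 659 miRNAs in MV4-11 (3.03%) and 45 in Molm-14 (6.83%). Among the 44 whose effects differed, the effect was called in Molm-14 alone for 18, in MV4-11 alone for 7, in both lines for 5 and in neither for 14. All 5 called in both went in opposite directions. The size of the fitted effect was larger in Molm-14 for 22 and in MV4-11 for the other 22. The fitted effects had opposite signs for 40 of the 44, against 377 of all 659, and a called difference favours opposite signs by its construction. The exceptions were miR-10a-5p, miR-143-3p, let-7d-3p and miR-146a-5p. Neither line's EV and KO libraries overlapped for 19 of the 44, against 47 of all 659 members (7.13%), which include the 19. The 44 were chosen by a test on these same libraries, which favours libraries that do not overlap, so these counts are descriptions. Taken line by line, the libraries of 17.5% of all members did not overlap in MV4-11 and those of 27.2% in Molm-14.

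**Figure D3:**
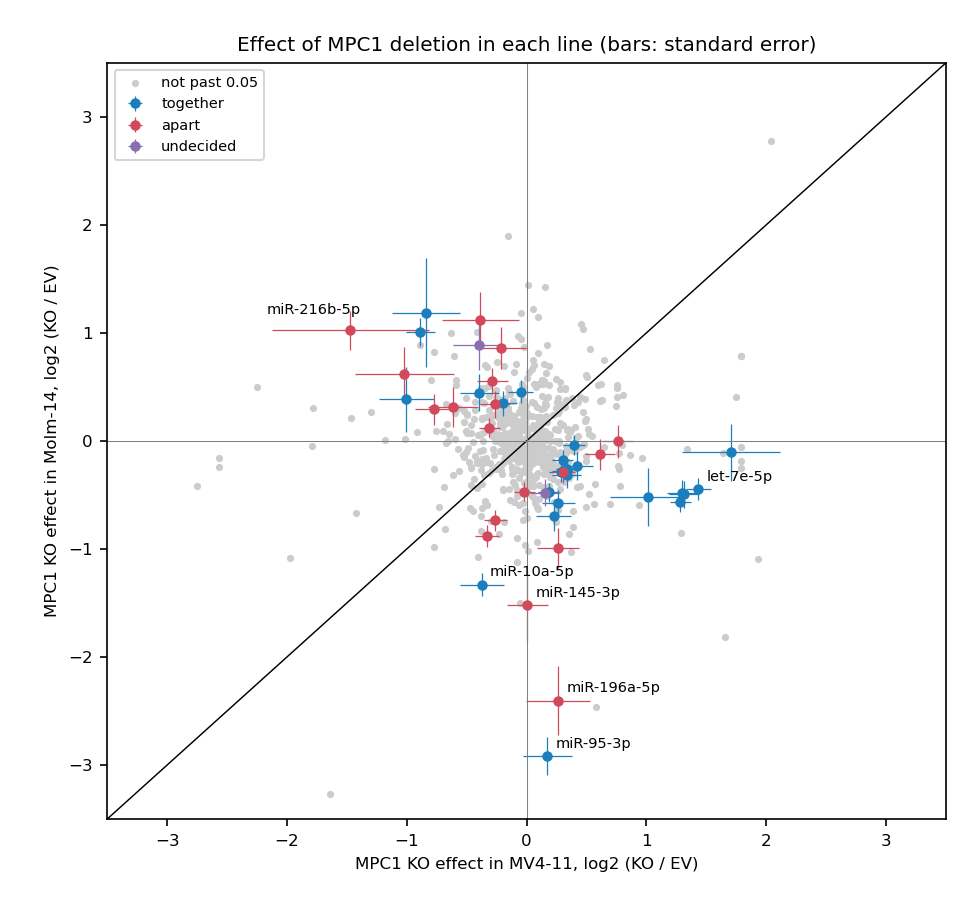
The effect of MPC1 KO (log2 of KO over EV) is plotted for each miRNA, MV4-11 on the horizontal and Molm-14 on the vertical axis, with standard errors for the 44 called miRNAs. Equal effects lie on the solid line. miR-95-3p and miR-196a-5p are lowest in Molm-14, near 0 in MV4-11.

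The arms of the chromosome 19 hairpins MIR99B, MIRLET7E and MIR125A were the only neighbouring group in which every measured arm, 6 of 6, was called, all lower in Molm-14 and all under "together". Over all members, which include these arms, 6.68% were called. The hairpins lie on the plus strand of GRCh38 between 51692612 and 51693339, 105 and 390 bases apart, within SPACA6. MIR99B and MIRLET7E are in an intron and MIR125A overlaps an exon of SPACA6, and SPACA6-AS1 has exons on the opposite strand. Members of the let-7 family restrain growth genes such as RAS and HMGA2, miR-99b belongs to the miR-100 family that targets MTOR, and miR-125a is a mammalian relative of lin-4.

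let-7e-5p was at 89.2, 85.6 and 90.7 CPM in MV4-11 EV, 243, 215 and 259.7 in MV4-11 MPC1 KO, 341, 282 and 323 in Molm-14 EV and 220.4, 239 and 237 in Molm-14 MPC1 KO libraries. MV4-11 EV stood below all other groups, and the KO libraries of the lines overlapped. Its difference was -1.88 (standard error 0.15, 95% interval -2.18 to -1.57, adjusted p = 1.84e-09 from edgeR's test), and the gap went from 1.83 to -0.04. For let-7e-5p the KO gap was not detectable (95% interval -0.26 to 0.17).

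miR-99b-5p, the most abundant arm of the group, was at 371, 364 and 369 CPM in MV4-11 EV and 884, 901 and 901 in MV4-11 MPC1 KO libraries. In Molm-14 it was at 844, 748 and 734 in EV and 541, 502 and 524 in MPC1 KO libraries. The order of the lines was thus reversed, with no overlap in either condition. The gap went from 1.08 to -0.78, a difference of -1.85 (standard error 0.12, adjusted p = 1.26e-10). Since both gaps were of similar size, its place under "together" was weak. The sum of its gaps was 0.30 (adjusted p = 0.0338), and in 16 of 20 other fits it was not placed there, while the difference was called in all 20.

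miR-125a-5p also crossed, from an EV gap of 1.30 to a KO gap of -0.51 (difference -1.81, standard error 0.18, adjusted p = 7.69e-08). Its levels were 293, 212 and 240.4 CPM in MV4-11 EV and 622, 619 and 619.7 in MV4-11 MPC1 KO libraries. The Molm-14 libraries had 695, 513 and 628 CPM in EV and 467, 371 and 467 in MPC1 KO. The 3 KO libraries of MV4-11 were within a few CPM of each other and above both groups of Molm-14 save for a pair of EV libraries.

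The passenger arm miR-99b-3p followed its partner, with 35.7, 32.8 and 40.7 CPM in MV4-11 EV, 95.4, 90.6 and 82.6 in MV4-11 MPC1 KO, 116, 108 and 94.0 in Molm-14 EV and 77.0, 75 and 76.2 in Molm-14 MPC1 KO libraries. The EV gap of 1.54 was reduced to -0.24, which was not called (adjusted p = 0.0953), a difference of -1.78 (standard error 0.17, adjusted p = 5.50e-08). The remaining arms were scarce. let-7e-3p had 7, 4 and 2 counts in the MV4-11 EV libraries and a difference of -1.81 (standard error 0.49, adjusted p = 0.0263), and was called in 6 of 12 fits that left out 1 library, not without any one MV4-11 EV library, replicate 1 of MV4-11 MPC1 KO, or replicate 3 of either Molm-14 group. miR-125a-3p had 19, 4 and 14 counts there and a difference of -1.54 (standard error 0.42, adjusted p = 0.0278). It was called in 4 of those 12 fits, those without replicate 3 of either EV group or replicate 2 of either Molm-14 group, and not with upper-quartile factors.

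**Figure D4:**
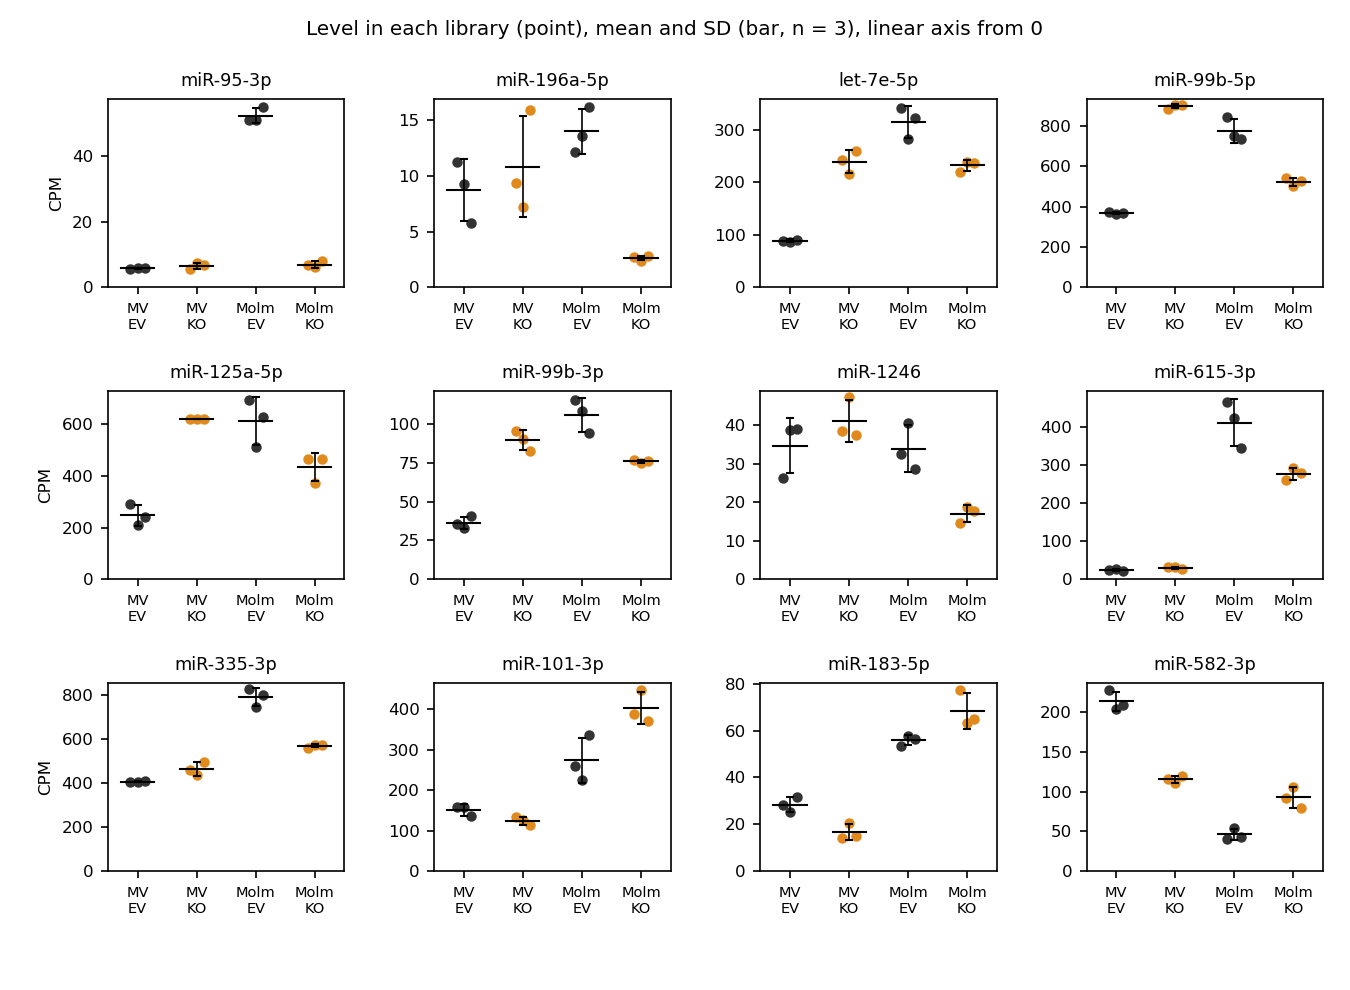
Levels of the 12 miRNAs called in all 12 fits that left out 1 library and under every other setting that tested them, in CPM on linear axes from 0. Points are libraries, the horizontal bar is the mean and the whiskers the SD of 3 libraries, EV in black and MPC1 KO in orange. For miR-95-3p the Molm-14 EV libraries stand alone, and for let-7e-5p the MV4-11 EV libraries do.

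miR-95-3p had the largest called difference. It was at 5.72, 5.89 and 5.99 CPM in MV4-11 EV and 5.63, 7.36 and 6.71 in MV4-11 MPC1 KO libraries, which overlapped. In Molm-14 it was at 51.1, 51.0 and 54.9 in EV and 6.83, 6.05 and 7.97 in MPC1 KO libraries. The Molm-14 level thus fell to that of MV4-11, and the gap of 3.16 closed to 0.07 (95% interval -0.35 to 0.49). The difference was -3.09 (standard error 0.27, adjusted p = 1.12e-08) and ranged over -3.18 to -2.98 in the fits without 1 library.

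Both arms of MIR582, which lies in an intron of PDE4D on the minus strand of chromosome 5 (59703606 to 59703703), started higher in MV4-11 and converged. miR-582-3p was at 228, 203 and 209 CPM in MV4-11 EV and 116, 111 and 119.7 in MV4-11 MPC1 KO, against 41.1, 54.4 and 43.4 in Molm-14 EV and 92.4, 106 and 80.0 in Molm-14 MPC1 KO libraries. All EV libraries of MV4-11 were above, and all EV libraries of Molm-14 below, every KO library of either line. The gap went from -2.21 to -0.31, a difference of 1.90 (standard error 0.18, adjusted p = 2.92e-08). miR-582-5p gave 1.39 (standard error 0.38, adjusted p = 0.0278) from 12 to 20 counts in the Molm-14 EV libraries, and was called in 5 of 12 fits that left out 1 library. The highest adjusted p of those fits was 0.118, reached without replicate 2 of Molm-14 MPC1 KO.

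3 called miRNAs come from the HOX clusters, whose homeobox genes set positional and myeloid identity and are often overexpressed in AML. All 3 had a lower effect in Molm-14, as did 28 of all 44 called miRNAs. Of the 6 tested arms of miR-10 and miR-196, 2 were called, beside 6.68% over all members. The differences of these 6 ranged from -3.47 to 0.49, and the other arm of MIR615 was not called. miR-10a-5p, from an intron of HOXB3 on chromosome 17 (48579838 to 48579947, minus strand), was at 7.18, 6.57 and 8.14 CPM in MV4-11 EV and 5.83, 4.35 and 6.71 in MV4-11 MPC1 KO libraries. Molm-14 held 408, 402 and 411 CPM in EV and 165, 171 and 149 in MPC1 KO libraries. Its level fell in Molm-14, yet the KO gap of 4.85 was still wider in size than that of any other called miRNA except miR-216b-5p (EV gap 5.80, difference -0.96, standard error 0.22, adjusted p = 0.00817). Without MV4-11 MPC1 KO replicate 3 it was not called (adjusted p = 0.0670).

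miR-615-3p, from a hairpin within introns of HOXC5 and HOXC4 on chromosome 12 (54033950 to 54034045, plus strand), also fell in Molm-14 and kept a wide gap, at a smaller size. It was at 25.3, 26.3 and 22.7 CPM in MV4-11 EV, 31.1, 32.4 and 26.0 in MV4-11 MPC1 KO, 467, 424 and 347 in Molm-14 EV and 261, 293 and 279.5 in Molm-14 MPC1 KO libraries. The EV gap was 4.05 and the KO gap 3.22, both far from 0 (difference -0.84, standard error 0.18, adjusted p = 0.00499). In MV4-11 its fitted effect was 0.26, against -0.37 for miR-10a-5p, and neither was called.

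miR-196a-5p moved the lines apart. It is encoded by MIR196A1 in an intron of HOXB7 on chromosome 17 (48632490 to 48632559, minus strand) and MIR196A2 in an intron of HOXC6 on chromosome 12 (53991738 to 53991847, plus strand), which give the same mature arm, and it targets HOX messages such as HOXB8. Its levels were 11.2, 9.29 and 5.75 CPM in MV4-11 EV and 9.33, 7.19 and 15.9 in MV4-11 MPC1 KO libraries. In Molm-14 they were 12.2, 13.6 and 16.2 in EV and 2.70, 2.38 and 2.81 in MPC1 KO. The KO libraries of Molm-14 were below all 9 others, and the spread in MV4-11 was wide. The gap went from 0.64 to -2.03, so the line with the higher level changed (difference -2.67, standard error 0.42, adjusted p = 1.64e-04). Its range over the fits without 1 library was -2.89 to -2.26. miR-196b-5p, which shares its seed and was at 2156 ± 143 CPM in MV4-11 EV (SD, n = 3), was not called (-0.40, adjusted p = 0.0717), and how reads that match both were counted is not given in the sources used here.

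miR-335-3p, from an intron of MEST, an imprinted gene on chromosome 7 (hairpin 130496111 to 130496204, plus strand), was at 406, 407 and 411 CPM in MV4-11 EV and 458, 436 and 499 in MV4-11 MPC1 KO libraries. It fell in Molm-14 from 831, 747 and 801 to 563, 577 and 575. The gap narrowed from 0.96 to 0.30 (difference -0.66, standard error 0.12, adjusted p = 0.00166), with the KO libraries of Molm-14 still above those of MV4-11. The other arm, miR-335-5p, gave -0.38 (standard error 0.21, adjusted p = 0.325).

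A further set under "together" consisted of abundant miRNAs with smaller differences, each higher in Molm-14 than in MV4-11 in both conditions. miR-28-3p, from an intron of LPP, was at 931 to 1060.4 CPM in MV4-11 EV, 1179.9 to 1314 in MV4-11 MPC1 KO, 1712 to 1872 in Molm-14 EV and 1453 to 1614 in Molm-14 MPC1 KO libraries, a difference of -0.60 (standard error 0.13, adjusted p = 0.00499). miR-629-5p, from an intron of TLE3, gave -0.58 (standard error 0.12, adjusted p = 0.00499) with gaps of 0.79 and 0.21. miR-92b-3p, of the miR-25 and miR-92 seed family, gave -0.57 (standard error 0.13, adjusted p = 0.00893) with gaps of 0.93 and 0.37. The EV and KO libraries of these 3 overlapped in neither line. All 3 were called in every fit that left out 1 library but not with upper-quartile factors (adjusted p = 0.0726, 0.0684 and 0.101).

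let-7b-5p, one of the most abundant called miRNAs, was at 1629 ± 46.1 CPM in MV4-11 EV and 10665 ± 658 in Molm-14 EV (SD, n = 3 each). In MPC1 KO cells it was at 2010.2 ± 81.6 and 9456 ± 35.1 (SD, n = 3 each). The EV and KO libraries did not overlap in either line, and the gap went from 2.71 to 2.23 (difference -0.48, standard error 0.13, adjusted p = 0.0239). The call was lost in 7 of 12 fits that left out 1 library and with upper-quartile factors (adjusted p = 0.202). miR-1296-5p (-0.65), miR-766-3p (-0.66) and miR-503-5p (-0.43, of the miR-424 and miR-503 cell cycle cluster) had the same direction. They were called in 8, 5 and 2 of the 12 fits and not with upper-quartile factors, and miR-503-5p was also not called with RLE or total-count scaling or without a filter on low counts. miR-574-3p, named after its values were seen, gave -0.92 (standard error 0.21, adjusted p = 0.00758) with gaps of 1.38 and 0.47.

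Besides MIR582, the miRNAs that started higher in MV4-11 and converged were both arms of MIR340, which lies in an intron of RNF130, miR-1298-5p, from an intron of HTR2C, and miR-877-3p. miR-340-5p was at 6091 to 7993 CPM in MV4-11 EV and 6485 to 7352 in MV4-11 MPC1 KO libraries. It rose in Molm-14 from 4140.3, 3769.6 and 4410.3 to 5420.2, 6079 and 5403. Its difference was 0.50 (standard error 0.15, adjusted p = 0.0404) and that of miR-340-3p was 0.54 (standard error 0.16, adjusted p = 0.0414), called in 3 and 2 of 12 fits that left out 1 library. With total-count scaling neither was called. The call of miR-340-5p was also lost with RLE scaling and among miRNAs of at least 100 counts on average, and that of miR-340-3p with limma-voom and with a replicate block. miR-1298-5p had a large fitted difference of 2.03 (standard error 0.58, adjusted p = 0.0341) that rests on 5, 3 and 2 counts in the Molm-14 EV libraries. It was called in 5 of 12 such fits and not with DESeq2 or limma-voom. miR-877-3p, named after its values were seen, gave 0.84 (standard error 0.23, adjusted p = 0.0302).

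Among the miRNAs that moved the lines apart, miR-1246 had no detectable EV gap. It was at 26.4, 38.7 and 39.0 CPM in MV4-11 EV and 32.5, 40.6 and 28.6 in Molm-14 EV libraries, an EV gap of -0.02 (95% interval -0.39 to 0.34). In MPC1 KO cells it was at 38.7, 47.3 and 37.4 in MV4-11 and 14.6, 18.7 and 17.8 in Molm-14. The Molm-14 KO libraries were below all others, and the KO gap was -1.28 (difference -1.25, standard error 0.25, adjusted p = 0.00346). Its sequence is also found in a small nuclear RNA of the spliceosome, and the files do not say which of these the reads came from. let-7d-3p and miR-361-5p likewise had no detectable EV gap (-0.05 and 0.07) and KO gaps of -0.50 and -0.53. For let-7d-3p the difference was -0.45 (adjusted p = 0.0287, called in 3 of 12 fits that left out 1 library and not with upper-quartile or total-count scaling or without a filter on low counts). For miR-361-5p it was -0.60 (adjusted p = 0.00893, called in 11 of 12, the exception being without MV4-11 MPC1 KO replicate 3, and not with upper-quartile factors, adjusted p = 0.0911).

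2 of the 3 measured arms of the cluster of miR-183, miR-96 and miR-182, known from sensory organs and lymphocytes, were called with a higher effect in Molm-14 and moved apart. Over all members 6.68% were called. miR-183-5p was at 28.2, 25.1 and 31.6 CPM in MV4-11 EV and 14, 20.4 and 15.2 in MV4-11 MPC1 KO, against 53.5, 57.6 and 56.2 in Molm-14 EV and 77.1, 63.1 and 65.0 in Molm-14 MPC1 KO libraries. It fell in MV4-11, the line in which it was already lower, and the gap widened from 0.98 to 2.04 (difference 1.07, standard error 0.22, adjusted p = 0.00346). miR-182-5p, whose hairpin lies 4436 bases away on the minus strand of chromosome 7, gave 0.93 (standard error 0.28, adjusted p = 0.0454) and was called in 5 of 12 fits that left out 1 library. Its call was also lost with limma-voom (adjusted p = 0.0528). The third arm, miR-96-5p, was not called (0.33, 95% interval -0.28 to 0.95).

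miR-101-3p, which represses the histone methyltransferase EZH2, was at 159, 159 and 136 CPM in MV4-11 EV and 134, 126 and 114 in MV4-11 MPC1 KO libraries. It rose in Molm-14 from 260.3, 226 and 336 to 389, 449 and 372. The groups did not overlap in either line, and the gap widened from 0.86 to 1.70 (difference 0.84, standard error 0.18, adjusted p = 0.00499). One hairpin that gives it, MIR101-2, lies in an intron of RCL1 on chromosome 9 (4850297 to 4850375, plus strand).

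The cluster of miR-143 and miR-145 on chromosome 5, within the lncRNA CARMN and best known from smooth muscle, was higher in MV4-11 and moved apart in 2 of its 4 measured arms. The share called over all members was 6.68%. miR-145-3p was at 24.3, 23.8 and 20.4 CPM in MV4-11 EV and 24.9, 22.4 and 21.9 in MV4-11 MPC1 KO, against 3.99, 4.54 and 2.92 in Molm-14 EV and 1.26, 1.65 and 0.938 in Molm-14 MPC1 KO libraries, the last from 7, 9 and 4 counts. The difference was -1.53 (standard error 0.37, adjusted p = 0.0133), and without Molm-14 MPC1 KO replicate 3 the adjusted p was 0.0531. miR-143-3p fell in Molm-14 from 173, 197 and 168 to 95.7, 99.6 and 96.8 CPM, and in MV4-11 its KO libraries (491, 563 and 466) were also below its EV libraries (583, 643 and 688). Its difference was -0.55 (standard error 0.14, adjusted p = 0.0243), a call that was lost in 6 of 12 fits that left out 1 library and with upper-quartile factors. miR-143-3p and miR-145-5p are also the 2 stromal cell markers, and their summed level was 614 to 715 CPM in MV4-11 EV, 507 to 589 in MV4-11 MPC1 KO, 177 to 201 in Molm-14 EV and 99.0 to 104 in Molm-14 MPC1 KO libraries. What part other cells have in this was not tested, and in bulk libraries fewer cells of a type and less RNA per cell cannot be told apart. miR-145-5p (-0.70, adjusted p = 0.331) and miR-143-5p (0.28, adjusted p = 0.904) were not called.

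miR-146a-5p, which dampens NF-kB signalling through TRAF6 and IRAK1, behaved in the same way. It was at 4346, 4055 and 3800.3 CPM in MV4-11 EV and 3331, 3147 and 3711 in MV4-11 MPC1 KO libraries. In Molm-14 it fell from 207, 184 and 204 to 119.9, 111 and 126. The EV gap of -4.36, the widest in favour of MV4-11 among the called miRNAs, went to -4.83 (difference -0.47, standard error 0.14, adjusted p = 0.0378). The call held in 3 of 12 fits that left out 1 library and was lost with upper-quartile factors, without a filter on low counts and with limma-voom. miR-155-3p had the opposite direction, and rose in Molm-14 from 14.4, 12.5 and 13.9 CPM to 26.6, 23.7 and 24.4 while its MV4-11 groups overlapped (8.89 to 12.2 in EV and 6.99 to 12 in MPC1 KO). Its difference was 1.08 (standard error 0.29, adjusted p = 0.0263), called in 6 of 12 such fits. The abundant arm miR-155-5p, one of the haematopoietic markers, had the same sign and just missed the threshold (0.56, standard error 0.18).

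Of the 12 measured arms of the miR-17-92 cluster, a proliferation-associated cluster in MIR17HG on chromosome 13, 2 were called, beside 6.68% over all members. Both were higher in Molm-14 and both apart. miR-18a-5p gave 0.43 (standard error 0.13, adjusted p = 0.0378) with gaps of 0.82 and 1.25, and miR-19a-3p gave 0.60 (standard error 0.18, adjusted p = 0.0427) with gaps of 0.46 and 1.06. They held in 2 and 3 of 12 fits that left out 1 library, and miR-18a-5p was not called with RLE or total-count scaling or without a filter on low counts. The median difference of the 12 arms was 0.34, beside -0.00 over all members, and their other arms miR-18a-3p (-0.18) and miR-19a-5p (1.11) were not called.

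The largest called difference above 0 was that of miR-216b-5p, which rests on very few MV4-11 counts. It had 9, 2 and 1 counts in the MV4-11 EV and 1, 2 and 1 in the MV4-11 MPC1 KO libraries. Molm-14 had 104, 96 and 88 counts in EV and 233, 270 and 182 in MPC1 KO libraries, or 20.8, 25.6 and 19.8 and 41.9, 49.5 and 42.7 CPM, so it rose in Molm-14. Over the summed counts, scaled by library size, Molm-14 was 30.6-fold higher in EV (95% counting interval 17.2 to 59.8) and 188-fold higher in MPC1 KO cells (73.2 to 693). The fitted difference of 2.5 (standard error 0.68, adjusted p = 0.0278) was no longer called without MV4-11 EV replicate 1 (adjusted p = 0.518), nor without replicate 1 of either KO group or replicate 3 of MV4-11 MPC1 KO or Molm-14 EV, nor with limma-voom. miR-708-5p, from an intron of TENM4, rose in Molm-14 from 8.58, 7.21 and 6.52 to 16.5, 16.0 and 16.4 CPM and was at 4.87, 4.98 and 3.11 and 5.44, 1.67 and 3.18 in the MV4-11 EV and MPC1 KO libraries (difference 1.51, standard error 0.41, adjusted p = 0.0278). miR-9-3p, from a miRNA gene family abundant in brain and in some AML, gave 1.64 (standard error 0.48, adjusted p = 0.0404) from 5, 7 and 3 counts in the MV4-11 MPC1 KO libraries. miR-708-5p and miR-9-3p were called in 5 and 3 of 12 fits that left out 1 library, and miR-9-3p not with total-count scaling, without a filter on low counts, with DESeq2 or limma-voom, or with a replicate block.

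Both arms of MIR642A, from an intron of GIPR on chromosome 19, rose in MV4-11, where they were already higher. miR-642a-5p rose from 142, 129 and 131 to 192, 225 and 198 CPM, while Molm-14 had 27.0 to 38.7 in EV and 26.4 to 32.8 in MPC1 KO libraries, which overlapped. The gap widened from -2.07 to -2.81 (difference -0.74, standard error 0.19, adjusted p = 0.0233), a call lost in 6 of 12 fits that left out 1 library and with upper-quartile factors. miR-642a-3p, named after its values were seen, gave -0.76 (standard error 0.20, adjusted p = 0.0235).

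The 2 undecided miRNAs exchanged sides at a similar size of gap. miR-34c-5p, of a family induced by p53, was at 10.8, 11.6 and 7.18 CPM in MV4-11 EV and 7.38, 7.69 and 7.59 in MV4-11 MPC1 KO libraries, and rose in Molm-14 from 6.79, 6.67 and 5.85 to 11.3, 13.9 and 10.3. Its gap went from -0.63 to 0.65 (difference 1.28, standard error 0.32, adjusted p = 0.0154), and the call was lost without replicate 3 of its EV or replicate 2 of its KO libraries in Molm-14 (adjusted p up to 0.0574). miR-197-3p went from 0.28 to -0.35 (difference -0.63, standard error 0.18, adjusted p = 0.0341), with a Molm-14 EV range of 851 to 1296 CPM that spanned the whole of MV4-11 EV (869 to 883). It held in 4 of 12 fits that left out 1 library, and was not called with upper-quartile factors, with limma-voom, or with same-numbered Molm-14 libraries as pairs in a replicate block.

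Seeds were seldom shared. let-7e-5p and let-7b-5p were the only called pair with a seed in common, and of the other 7 tested miRNAs with that seed none was called (differences of -0.38 to 0.08). Because let-7e-5p is rare among them, the summed level of all 9 changed little, from 132260 CPM in MV4-11 EV to 134807 in MPC1 KO cells and from 169759 to 161253 in Molm-14 (means of 3 libraries). Its share of that sum was 0.067% and 0.177% in MV4-11 EV and MPC1 KO, and 0.186% and 0.144% in Molm-14. miR-99b-5p, by contrast, made up 87.4% of the 3 miRNAs with its seed in MV4-11 EV and 96.3% in MPC1 KO cells, where their sum went from 421 to 930.2 CPM. In Molm-14 it was 8.66% and 5.74% of a sum of 9176 and 9198 CPM, most of it miR-99a-5p. For miRNAs with that seed the gap of the sums was 4.45 in EV and 3.31 in MPC1 KO cells, on the same side, although miR-99b-5p itself crossed. In these counts miR-125a-5p was nearly all of its pair with miR-125b-5p in every group. The gap of the sums therefore followed it, from 1.32 to -0.49. These sums are descriptions. Reads that match several members of a family, or several loci of a member, could have been split or lost. How they were counted is not given in the sources used here, so a member's share could be too low or too high.

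For 25 hairpins with a called arm both arms were tested. In 6 of them (MIR99B, MIRLET7E, MIR125A, MIR582, MIR340 and MIR642A) both arms were called, in the same direction each time. The signs of the fitted differences were the same for 21 of the 25, against 105 of all 156 hairpins with both arms tested (67.3%). The exceptions were MIR143, MIR18A, MIR361 and MIR877. miR-10a-3p had the most negative fitted difference of all members (-3.47, standard error 1.26, adjusted p = 0.121) but had at most 2 counts in any MV4-11 library and was not called.

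Some of the other families fixed for description held called members, beside 6.68% over all members. There were 2 of 17 arms of the let-7 family without let-7e (let-7b-5p and let-7d-3p), 2 of 6 of miR-155 and miR-146, 2 of 6 of the miR-10 and miR-196 list, 2 of 6 of miR-28, miR-708 and miR-151a, 1 of 9 of the cluster of miR-424, miR-503, miR-542 and miR-450 and 1 of 5 of miR-34 and miR-449. None was called by edgeR's test in the clusters of miR-99a, miR-100 and miR-125b (7 arms), those of miR-106b and miR-106a (9) and of miR-23, miR-27 and miR-24 (11), the families of miR-181 (8), miR-15 and miR-16 (10), miR-30 (10), miR-29 (6), miR-148 and miR-152 (6) and miR-200 (6), the pairs miR-221 and miR-222 (4), miR-132 and miR-212 (4) and miR-193 and miR-365 (4), 10 blood-lineage and 10 metabolic miRNAs. Of these 105 distinct miRNAs, 18 had an unadjusted p under 0.05 (18.5% of all members did), 3 were called by DESeq2 and 1 by limma-voom, and the median difference of a list was between -0.40 and 0.51. miR-100-5p is an example of an effect of similar size in both lines, since it fell in both lines, with effects of -0.68 in MV4-11 and -0.82 in Molm-14 (difference -0.14, 95% interval -0.53 to 0.25).

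**Figure D5:**
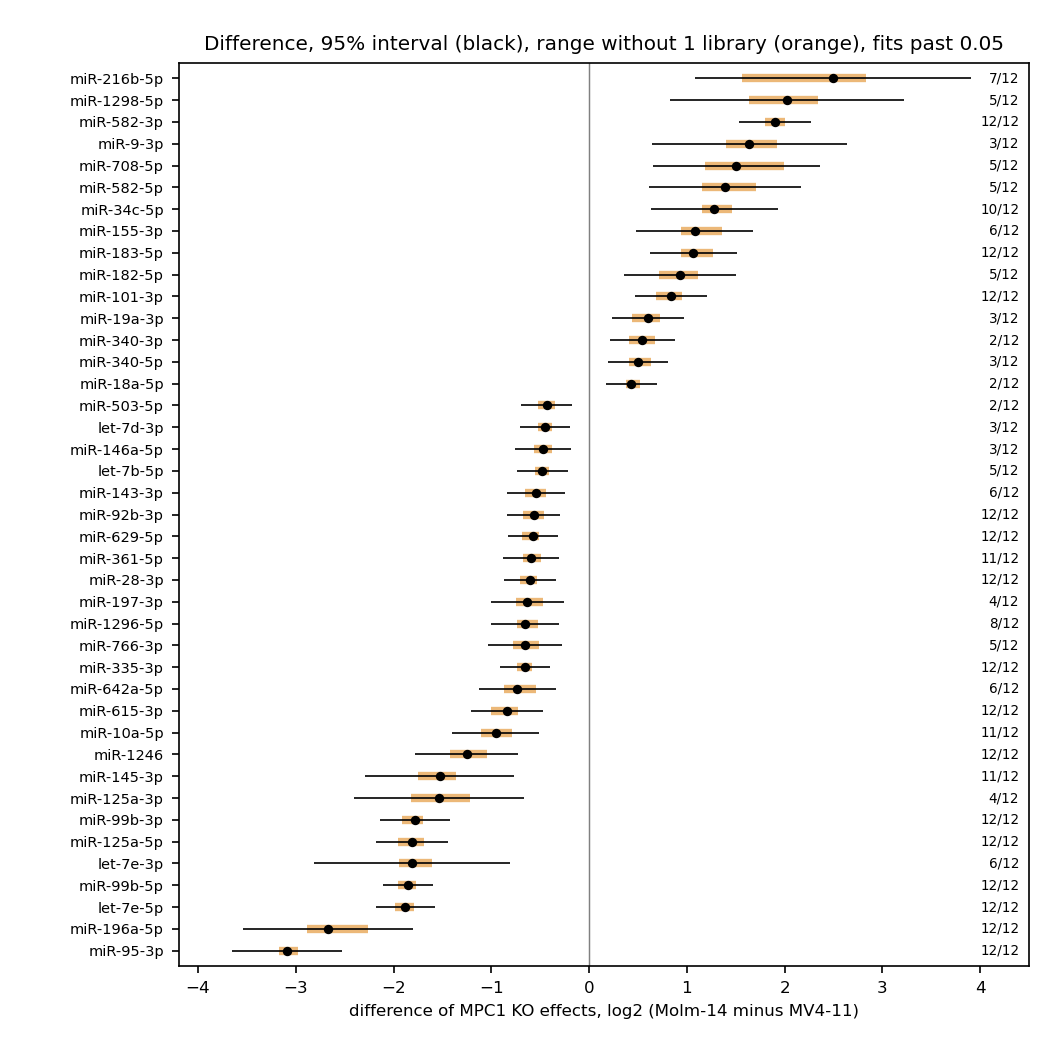
The difference of differences (log2, Molm-14 minus MV4-11) of the 41 called miRNAs chosen by rule is shown as a black point with its 95% interval. The orange bar is the range over the 12 fits that each left out 1 library, and the number at the right says in how many of them the miRNA was called. 15 were called in all 12.

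miR-1-3p, the miRNA that the study went on to follow, was not among the called ones. It had 18, 10 and 8 counts in the MV4-11 EV and 42, 51 and 56 in the MV4-11 MPC1 KO libraries, and 2, 1 and 1 in the Molm-14 EV and 9, 17 and 8 in the Molm-14 MPC1 KO libraries. The counts were thus higher in the KO libraries of both lines. Over the summed counts, scaled by library size, Molm-14 MPC1 KO was 7.35-fold above Molm-14 EV (95% counting interval 2.62 to 28.5). The test of the difference asks only whether the effects in the lines differ, not whether a line changed. The fitted difference was 0.74 (standard error 0.63, adjusted p = 0.601), and its 95% interval of -0.57 to 2.05 spans effects in Molm-14 that are smaller and larger than that in MV4-11. MV4-11 stood above Molm-14 in every library of both conditions, with an EV gap of -2.72 and a KO gap of -1.99. The EV level of Molm-14 rests on 4 counts in all, and MV4-11 EV was 7.07-fold higher (95% counting interval 2.53 to 27.3).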

How the data were processed

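The authors deposited a table of raw read counts per mature miRNA for 12 small RNA libraries (Qiagen miRNeasy RNA, NEBNext small RNA kit). The submitters' processing notes name STAR 2.5.2, featureCounts 1.5.1 and GRCh38. The treatment of reads that match several miRNAs is not given in the sources used here. Library totals were 3870104 to 8683456 counts, which limits scarce miRNAs.

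From these counts, edgeR 4.0.16 (R 4.3.3) kept 659 of 1204 miRNAs by filterByExpr with a minimum count of 10, applied TMM factors (0.940 to 1.08) and fitted 4 group means by robust quasi-likelihood. P-values were adjusted over all 659 by the Benjamini-Hochberg method. CPM values use TMM-scaled library sizes. Two-sided 95% intervals are from the same fit, and counting intervals are exact and cover counting error only. Alternatives were RLE, upper-quartile and total-count scaling, other filters (none, or a mean of 100 counts), DESeq2 1.42.0, limma-voom 3.58.1, a replicate block (over both lines, or within Molm-14, where same-numbered libraries deviated together, at correlations of 0.13 to 0.35) and leaving out each library.

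Values are named for the 10 largest differences each way among called miRNAs, those of at least 100 CPM, and those within 10 kb of another called one on the same strand, with the other arms of these hairpins, and for miR-1-3p. Others were named after their values were seen: miR-574-3p, miR-642a-3p, miR-877-3p, miR-10a-3p, miR-335-5p, miR-96-5p, miR-155-5p, miR-196b-5p and miR-100-5p. Locations are from RefSeq and GENCODE on GRCh38. Scripts were tested on simulated data. The members and lists were chosen with earlier results of these data known.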

Additional observations from a re-analysis of the deposited data

Results flagged for a closer look

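From the 44 miRNAs that passed the test of the difference itself, 41 were chosen by rule. Their values on the log2 scale (Molm-14 effect minus MV4-11 effect) follow. 4 of them come from the chromosome 19 hairpins and were called in all 12 fits that left out 1 library, let-7e-5p (-1.88), miR-99b-5p (-1.85), miR-125a-5p (-1.81) and miR-99b-3p (-1.78). The scarcer arms let-7e-3p (-1.81) and miR-125a-3p (-1.54) went the same way. Also called in all 12 such fits were miR-95-3p (-3.09), miR-196a-5p (-2.67), miR-1246 (-1.25), miR-615-3p (-0.84), miR-335-3p (-0.66), miR-582-3p (1.90), miR-183-5p (1.07) and miR-101-3p (0.84). miR-28-3p, miR-629-5p and miR-92b-3p, listed below, were called in all 12 such fits too, but not with upper-quartile factors.

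Lower effects in Molm-14 of smaller size were those of miR-10a-5p (-0.96), miR-642a-5p (-0.74), miR-766-3p (-0.66), miR-1296-5p (-0.65), miR-197-3p (-0.63), miR-28-3p (-0.60), miR-361-5p (-0.60), miR-629-5p (-0.58), miR-92b-3p (-0.57) and miR-143-3p (-0.55). The smallest were let-7b-5p (-0.48), miR-146a-5p (-0.47), let-7d-3p (-0.45) and miR-503-5p (-0.43). miR-145-3p (-1.53) was larger but rests on 4 to 9 counts in the Molm-14 MPC1 KO libraries.

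Higher effects in Molm-14 were fitted for miR-216b-5p (2.5), miR-1298-5p (2.03), miR-9-3p (1.64), miR-708-5p (1.51), miR-582-5p (1.39), miR-34c-5p (1.28) and miR-155-3p (1.08), all of them under 100 CPM on average. Among abundant miRNAs they were miR-19a-3p (0.60), miR-340-3p (0.54), miR-340-5p (0.50) and miR-18a-5p (0.43), and, at a moderate level, miR-182-5p (0.93).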

How the results depend on the processing

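Of the 41 called miRNAs chosen by rule, 12 were called in all 12 fits that left out 1 library and under every other setting that tested them, 15 in all 12 such fits and 20 under every other setting. Leaving out 1 library in turn gave 22 to 53 called differences against 44, 12 to 27 together against 24 and 7 to 24 apart against 18. The fewest came without MV4-11 MPC1 KO replicate 3 (22, of which 22 were among the 44) and the most without MV4-11 EV replicate 3 (53, of which 40 were). Effects called within a line numbered 12 to 38 in MV4-11, and EV and KO gaps 376 to 419 and 370 to 426. With at least 100 counts on average, which left 279 miRNAs to test, 212 EV gaps and 214 KO gaps were called. Over scalings, filters and tools the called differences numbered 39 to 49, with 20 to 24 together and 14 to 21 apart, and 49 with DESeq2, of which 42 were among the 44. Only with upper-quartile factors were more placed apart (21) than together (20). The sign reversed for miR-143-5p, which was not called (0.28), without replicate 2 of Molm-14 EV (-0.02) or replicate 1 of Molm-14 MPC1 KO (-0.92), over a range of -0.92 to 0.94 with 1 library left out, and for miR-18a-3p with upper-quartile factors (0.0035 against -0.18). The cause of the upper-quartile shift was not tested. Deviations of same-numbered EV and MPC1 KO libraries correlated at 0.13 to 0.35 in Molm-14 and -0.42 to 0.39 in MV4-11 over 279 miRNAs. Between the lines, same-numbered MPC1 KO libraries correlated at -0.03, 0.29 and 0.17 and EV libraries at 0.09, -0.20 and -0.58. Some values between the lines thus reached those within Molm-14, so this measure does not establish that the numbers pair the Molm-14 libraries. With a replicate block over both lines 42 differences were called, all among the 44, without miR-9-3p and miR-340-3p. With a replicate block within Molm-14 alone, chosen after seeing the data, 44 were called, 43 of them among the 44, and 48 effects in Molm-14 against 45. Of the named calls it ended that of miR-197-3p. 19 of the 44 had under 100 CPM on average, and their intervals are wide.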
